A study of Mus musculus with 7 samples.

Results

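The clustered protocadherins are cell surface proteins encoded in 3 neighbouring gene clusters, called alpha, beta and gamma. They were taken here as every gene whose symbol begins with Pcdha, Pcdhb or Pcdhga, Pcdhgb or Pcdhgc followed by its isoform number, or for alpha by c and a number. The rule found 53 of the 18145 genes in the deposited table: 10 alpha, 21 beta and 22 gamma members. The mouse RefSeq annotation of GRCm38.p6 lists 58 such genes. Pcdha1, Pcdha4, Pcdha8, Pcdha10 and Pcdhb1 had no row in the table and could not be analysed. Of the 53 members, 48 are variable isoforms and 5 are the c-type isoforms Pcdhac1, Pcdhac2, Pcdhgc3, Pcdhgc4 and Pcdhgc5. All 53 passed the filter on low values, which asked for at least 10 normalized counts in 2 or more libraries.

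RNA was sequenced from 7 mouse neural stem cell lines, each collected at passage 1 according to the series' design text. There were 2 lines of genotype Tet-TMut (TMut), 2 of genotype Tet-TFoCa (TFoCa, written Tet-FoCa in the design text) and 3 wild-type (WT) lines. The series title contrasts DNA hydroxymethylation with formylation and carboxylation. TET enzymes make these marks in turn by oxidising methylated cytosine. From the labels it is not known which of these steps a genotype affects, which Tet genes carry the alleles or how the lines were made. They record no treatment, and all lines were cultured cells. Each library was taken as its own line, and p-values measure the spread between the libraries of a genotype. Whether the lines of a genotype were derived independently is not known from the labels.

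In mouse neurons, each variable isoform is read from its own promoter, and single cells use different sets of isoforms, which gives each cell a surface identity for homophilic recognition. Promoter choice depends on CTCF and cohesin, and unused promoters carry DNA methylation. The c-type isoforms lie at the ends of the alpha and gamma clusters and are switched on more uniformly. Alpha and gamma transcripts join 1 isoform-specific exon to constant exons that encode a common cytoplasmic tail, while a beta gene is a single exon with no constant part.

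The libraries held between 33340167 and 62545457 reads assigned to genes. Levels below are normalized counts, the deposited unit, which are counts divided by a size factor for each library. In the GENCODE M21 annotation of GRCm38, each measured alpha member shares exons with 12 other alpha members, and each gamma member with 21 others. How reads in shared exons or on opposite strands were assigned is not given in the sources used here, so the split between isoforms of 1 cluster is uncertain, as it is between beta genes of similar sequence. Pcdhga10 has 0 exonic bases free of other genes, and Pcdhb12 has 36.5% of its exonic bases free, where an antisense gene overlaps the remainder. Pcdhgc3 is overlapped by the antisense gene BC037039, and Pcdhgb8 is listed as a transcribed pseudogene by RefSeq.

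Markers of other cell types moved with genotype and are set here beside all the results. All 8 neuron markers fell in TMut relative to WT, with summed levels of 8486 to 14952 in TMut, 46167 to 46268 in TFoCa and 59989 to 63934 in WT. Of 10 neural stem cell markers, 8 fell and 1 rose in TMut versus WT, with sums of 130975 to 156249 in TMut, 150730 to 164270 in TFoCa and 178709 to 182464 in WT. Of the 7 measured astrocyte markers, 6 fell and 1 rose in TMut versus WT, and without TMut replicate 2 these counts were 3 and 0. Their sums were 9575 to 10107 in TMut, 15241 to 16395 in TFoCa and 17413 to 20045 in WT. Of 8 oligodendrocyte lineage markers, 6 fell in TMut versus WT, with sums of 1836 to 1981 in TMut, 4926 to 5682 in TFoCa and 7464 to 8274 in WT.

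The 8 mesenchymal markers summed to 188430 to 274605 in TMut, 353471 to 412300 in TFoCa and 138018 to 150712 in WT. In TMut versus WT, 2 of them rose and 2 fell, with a median log2 fold change of 0.06. In TFoCa versus WT, 7 of them rose. That count was 2 without any 1 of the WT libraries, 4 without TFoCa replicate 1 and 3 without TFoCa replicate 2. Pluripotency markers were present in the cultures, with sums of 12332 to 48022 in TMut, 914 to 1103 in TFoCa and 12009 to 24486 in WT. All 8 of them fell in TFoCa versus WT and rose in TMut versus TFoCa. The pluripotency factor Pou5f1 had 3242 and 15569 in TMut, 166 and 166 in TFoCa, and 2613, 5487 and 3351 in WT. The 6 endothelial markers summed to 1723 to 2556 in TMut, 511 to 1481 in TFoCa and 1469 to 2154 in WT. None of the measured markers in these 7 lists was at 0 in a group. The 6 markers of microglia and blood had no row in the table and could not be analysed. The part of these shifts in the protocadherin results was not tested. In bulk RNA, fewer cells of a type and less RNA per cell cannot be told apart.

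The summed level of clustered protocadherin RNA was lower in TMut cells than in both other genotypes. As a share of the WT mean, TMut was lowest in the alpha cluster, while its gamma c-type sum was 105% of the WT mean. Summed over all 53 members, the level was 7439.7 and 6846 in TMut, 13169.6 and 10758 in TFoCa, and 10104, 10149 and 9963 in WT. Each TMut library lay below all 5 others, and their mean was 70.9% of the WT mean and 59.7% of the TFoCa mean. The TFoCa mean was 119% of the WT mean, with both TFoCa libraries above the 3 WT libraries. These sums count reads without regard to length and are descriptions without a test.

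**Figure D1:**
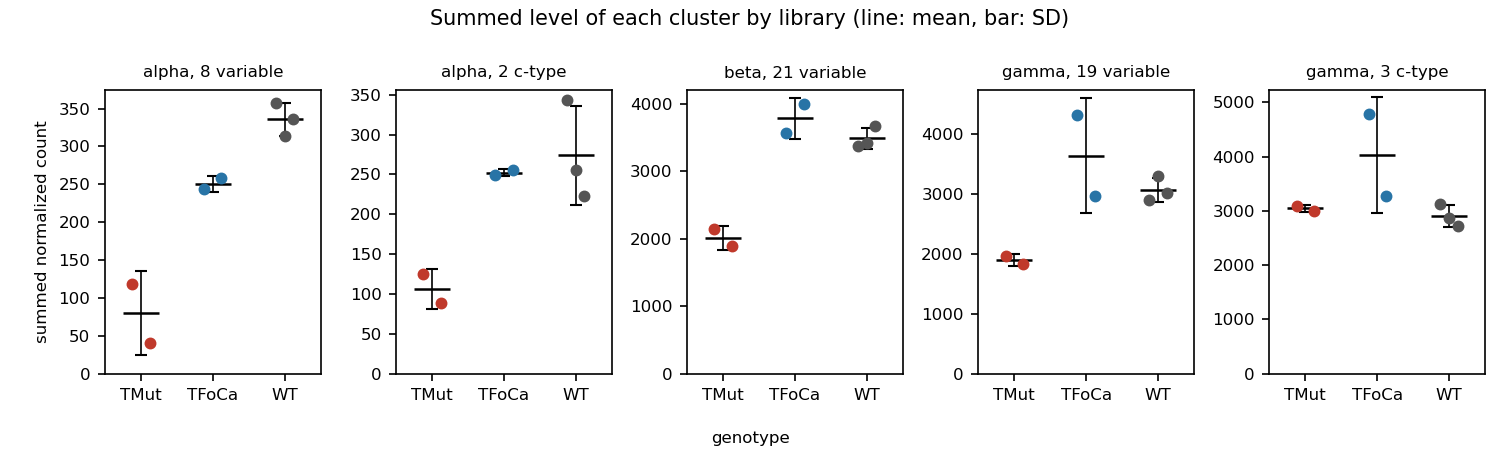
Summed normalized count (y axis, from 0) of the alpha variable, alpha c-type, beta, gamma variable and gamma c-type members in each library, with genotypes TMut, TFoCa and WT on the x axis. Points are libraries, lines are means and bars are SD (n = 2 TMut, 2 TFoCa and 3 WT). TMut libraries lie below all others in every panel except gamma c-type, where their mean is 105% of the WT mean.

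The 8 variable alpha members summed to 119 and 40.8 in TMut, 243 and 258 in TFoCa, and 358, 314 and 336 in WT. TMut held 23.7% of the WT mean and TFoCa 74.6%, and the 3 genotypes did not overlap. The 2 alpha c-type members summed to 124 and 88.8 in TMut, 249 and 256 in TFoCa, and 343, 255 and 223 in WT. TMut held 38.9% of the WT mean, while TFoCa, at 92.1% of it, lay within the range of the WT libraries.

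The 21 beta members summed to 2140.1 and 1891 in TMut, 3565 and 4003 in TFoCa, and 3382, 3419.7 and 3672 in WT. TMut held 57.7% of the WT mean, and TFoCa, at 108%, overlapped WT. The 19 variable gamma members summed to 1965 and 1832 in TMut, 4319.9 and 2966 in TFoCa, and 2896, 3298 and 3012 in WT, which put TMut at 61.9% of WT. The 3 gamma c-type members summed to 3092 and 2993 in TMut, 4792 and 3275 in TFoCa, and 3125, 2862 and 2721 in WT. In this last group the TMut libraries lay within the WT range, and TFoCa replicate 1 stood above the other 6 libraries.

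**Figure D2:**
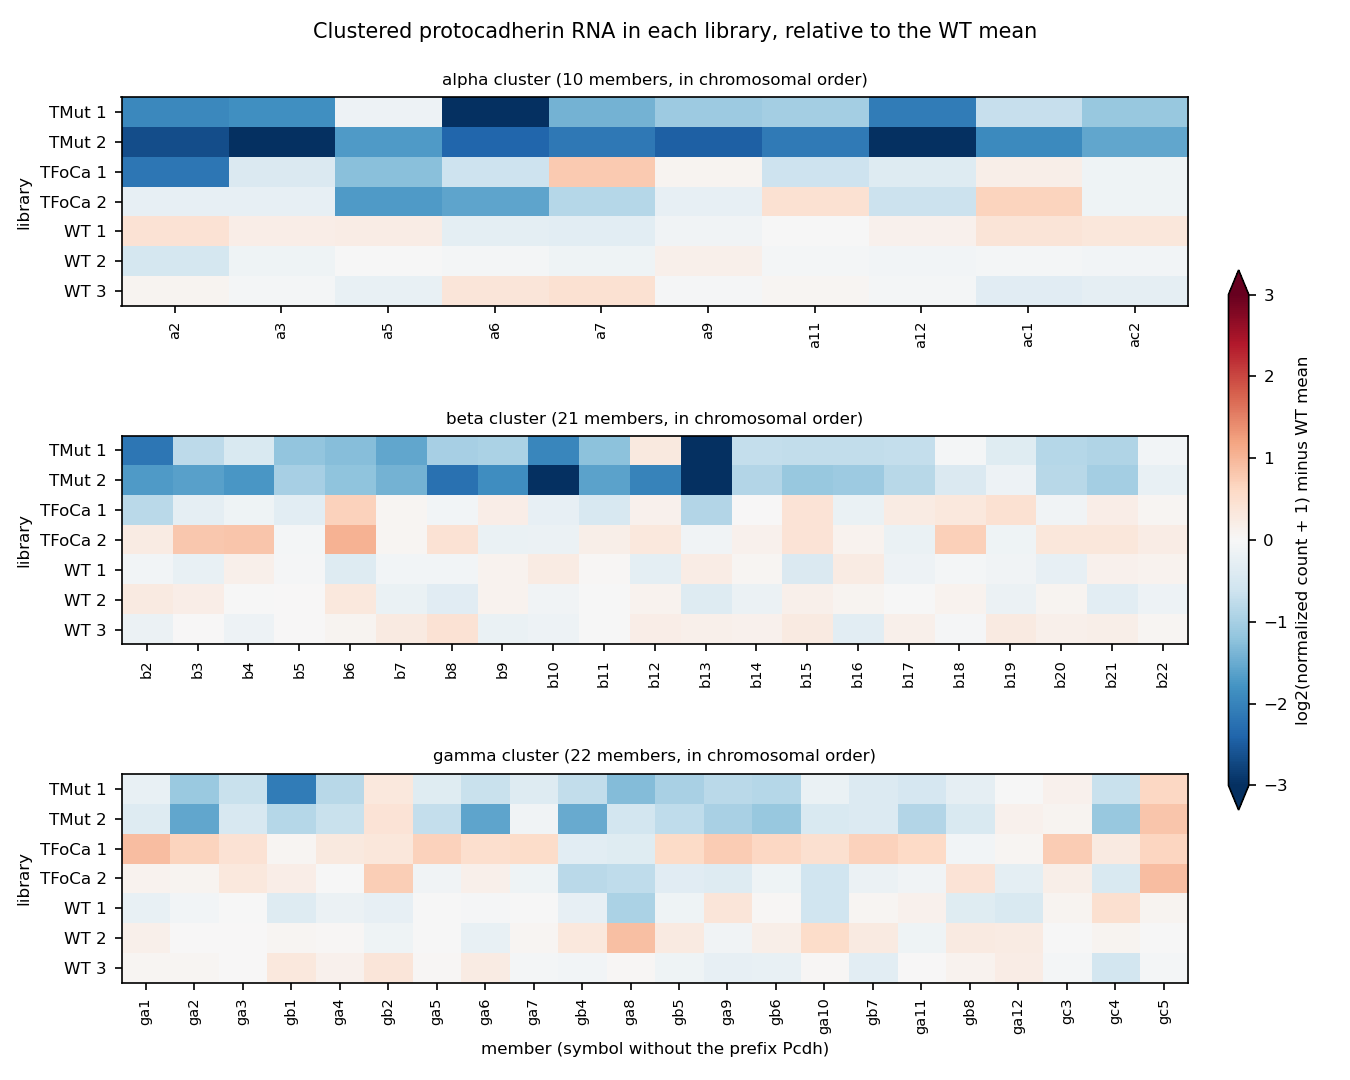
Difference of each library (rows, TMut at the top, then TFoCa, then WT) from the WT mean in log2(normalized count + 1), for each member (columns, in chromosomal order within its cluster). Blue is below and red above the WT mean, and the colour scale ends at 3 log2 units in each direction. The TMut rows are blue over most alpha and beta members, fading toward the end of the beta cluster, and the gamma row of TFoCa replicate 1 is red for most members.

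Compared with WT, 28 members fell and 1 rose in TMut, of 53 tested (limma on log2(normalized count + 1), Benjamini-Hochberg adjusted p under 0.05 over all 18134 genes tested). Over all genes tested, 38.8% passed the test in this comparison, 20.4% lower and 18.4% higher. The median log2 fold change of the members was -0.95, against 0.00 for all genes tested. The fitted change was below 0 in 49 members and at or below -1 in 24. Both TMut libraries lay below all 3 WT libraries in 42 members and above them in 1, where 33.6% and 33.4% of all genes tested did so. The count of 28 was 18, 13 and 13 when WT replicate 1, 2 or 3 was left out, and 12 when TMut replicate 2 was. Without TMut replicate 1 it was 24, and without either TFoCa library it was 31. Of the 29 members called, 11 kept their call when any 1 library was left out, namely Pcdha3, Pcdha6, Pcdha12, Pcdhac2, Pcdhb2, Pcdhb5, Pcdhb7, Pcdhb10, Pcdhb11, Pcdhb13 and Pcdhga2.

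**Figure D3:**
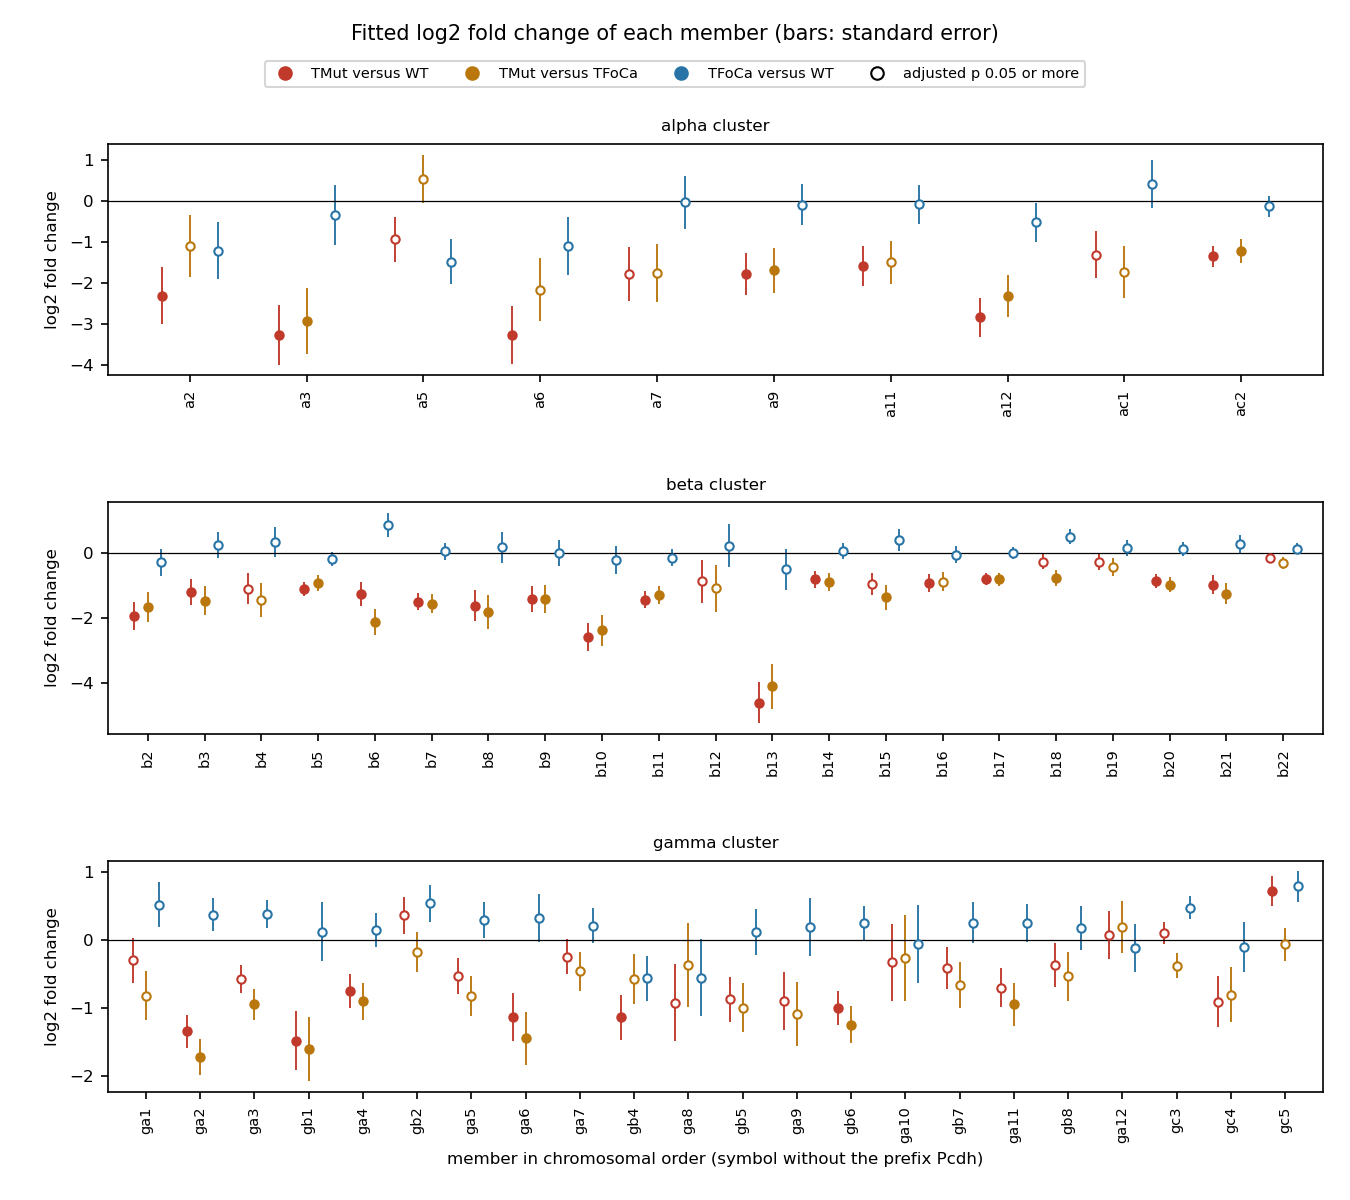
Fitted log2 fold change (y axis) of every member in chromosomal order (x axis), for TMut versus WT, TMut versus TFoCa and TFoCa versus WT. Bars are standard errors, filled points have an adjusted p under 0.05 and open points do not. Filled points lie below 0 except Pcdhgc5 in TMut versus WT, and every TFoCa versus WT point is open.

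In the alpha cluster, 7 of 10 members fell in TMut versus WT, 6 of them among the 8 variable members. The median log2 fold change was -1.78 for the cluster and -2.04 for its variable members, or -1.29 for the variable members with a pseudocount of 8. The count for the cluster was 4 without any 1 of the WT libraries or without TMut replicate 2, where that for the variable members was 3. Pcdha12 had a normalized count of 18.4 and 6 in TMut, 62.3 and 52.3 in TFoCa, and 89.4, 78 and 79.4 in WT. The pair of TMut libraries lay below the other 5, and Pcdha12 fell (log2 fold change -2.83 ± 0.47, adjusted p = 0.00293). Leaving out TMut replicate 1 gave -3.57 and leaving out TMut replicate 2 gave -2.10.

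Pcdha3 had 23 and 2.4 in TMut, 63.2 and 71.8 in TFoCa, and 98.1, 77.3 and 81.7 in WT. The TMut libraries were again the lowest, with replicate 2 far under replicate 1. Pcdha3 fell (log2 fold change -3.25 ± 0.73, adjusted p = 0.0106), by -4.66 without TMut replicate 1 and -1.84 without TMut replicate 2. Pcdha6 had 0 and 2.4 in TMut, 10.5 and 4.87 in TFoCa, and 13.3, 15.8 and 21.9 in WT. It was at or near 0 in TMut, where it received 2 reads over both libraries. These were 7.17% of the WT level, with an exact 95% interval of 0.85% to 27.0%, or 0.168% to 40.9% if 2 reads are taken as the mates of 1 fragment. Both cover counting error only. Pcdha6 fell (log2 fold change -3.26 ± 0.71, adjusted p = 0.009), and the fitted value, which depends on the pseudocount at so few reads, was -2.38 without TMut replicate 1, -4.14 without TMut replicate 2 and -1.44 with a pseudocount of 8.

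Pcdha2 had 4.61 and 2.4 in TMut, 3.83 and 17 in TFoCa, and 28.2, 13.9 and 21.9 in WT. The TMut libraries lay below all WT libraries but not below TFoCa replicate 1. Pcdha2 fell in TMut versus WT (log2 fold change -2.30 ± 0.70, adjusted p = 0.0337), a call lost at adjusted p = 0.0978 leaving out WT replicate 1, 0.0571 leaving out WT replicate 2, 0.0916 leaving out WT replicate 3, 0.0577 leaving out TMut replicate 1 and 0.153 leaving out TMut replicate 2. Pcdha5 had 29.9 and 9.6 in TMut, 13.4 and 9.74 in TFoCa, and 39.2, 33.6 and 28.8 in WT. TMut replicate 1 lay within the WT range, and the difference from WT did not pass the test (log2 fold change -0.93 ± 0.54, adjusted p = 0.209), although it did without TMut replicate 1 at adjusted p = 0.0464. Among the other variable alpha members, Pcdha9 and Pcdha11 fell, with log2 fold changes of -1.77 and -1.58. The call of Pcdha9 was lost at adjusted p = 0.0599 leaving out WT replicate 1, 0.0865 leaving out WT replicate 2, 0.0736 leaving out WT replicate 3 and 0.137 leaving out TMut replicate 2. That of Pcdha11 was lost at adjusted p = 0.0832 leaving out WT replicate 1, 0.0884 leaving out WT replicate 2, 0.0996 leaving out WT replicate 3 and 0.191 leaving out TMut replicate 2. Pcdha7 did not pass the test, with -1.78 and adjusted p = 0.0633. In 9 of 10 alpha members, TMut replicate 2 lay below TMut replicate 1. That library also had the lower neuron marker sum of the pair, 8486 against 14952, and the higher pluripotency marker sum, 48022 against 12332; the part of these in the difference was not tested.

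In the beta cluster, which has no c-type member, 15 of 21 members fell in TMut versus WT and the median log2 fold change was -1.09. The count was 8 without WT replicate 2, at 7 if WT replicate 3 was left out and at 6 without TMut replicate 2. Pcdhb13 had 0 and 2.4 in TMut, 23 and 40.2 in TFoCa, and 51, 33 and 48.3 in WT. It was all but absent from TMut, with 0 reads in replicate 1 and 2 reads in replicate 2. The TMut level was 2.75% of the WT level by reads, with an exact 95% interval of 0.33% to 10.1%, or 0.0684% to 15.7% with 2 reads taken as 1 fragment. Pcdhb13 fell (log2 fold change -4.59 ± 0.63, adjusted p = 0.00129), with a fitted value of -3.70 without TMut replicate 1 and -5.47 without TMut replicate 2. At so few reads the value depends on the pseudocount and was -2.50 with 8 in place of 1.

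Pcdhb10 had 18.4 and 7.2 in TMut, 62.3 and 65.7 in TFoCa, and 87.9, 69.1 and 66.7 in WT. The 2 TMut libraries were the lowest, and Pcdhb10 fell (log2 fold change -2.57 ± 0.44, adjusted p = 0.00325), by -3.19 without TMut replicate 1 and -1.95 without TMut replicate 2. Pcdhb7 had 43.8 and 48 in TMut, 135 and 136 in TFoCa, and 123, 113 and 158 in WT. TMut lay well below both other genotypes, which overlapped, and Pcdhb7 fell (log2 fold change -1.48 ± 0.27, adjusted p = 0.0042).

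Pcdhb6 had 16.1 and 16.8 in TMut, 66.1 and 84 in TFoCa, and 30.6, 50.7 and 42.6 in WT. Here the 3 genotypes did not overlap, with TMut the lowest and TFoCa the highest. Pcdhb6 fell in TMut versus WT (log2 fold change -1.25 ± 0.37, adjusted p = 0.0322), a call lost at adjusted p = 0.118 leaving out WT replicate 2, 0.0978 leaving out WT replicate 3, 0.0868 leaving out TMut replicate 1 and 0.0911 leaving out TMut replicate 2. Pcdhb18 had 187 and 144 in TMut, 243 and 321 in TFoCa, and 188, 210.4 and 189.8 in WT. Both TMut libraries lay under the WT libraries by a small margin, and the difference did not pass the test (log2 fold change -0.26 ± 0.23, adjusted p = 0.407).

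The size of the fall varied along the beta cluster. Pcdhb2 to Pcdhb16 together held 41.6% of the WT level in TMut, and Pcdhb17 to Pcdhb22 held 70.5%. This division of the cluster was chosen after the values were seen and was not tested. In the first stretch 12 of 15 members fell, and 3 of 6 fell in the second. The first count was 6 if WT replicate 2 or TMut replicate 2 was left out and 7 without WT replicate 3, and the second was 0 without WT replicate 3 or TMut replicate 2 and 1 without TMut replicate 1. Across the 21 beta members, the fitted change correlated with position in the cluster (Spearman's rho 0.688) and with mean level (0.686), and position itself correlated with level in TFoCa (0.513). The members share the same libraries and are not independent, so these are descriptions. On the scale of normalized counts per kilobase of exon free of other genes, Pcdhb17, Pcdhb20 and Pcdhb22 were the 3 highest beta members in every genotype. Their mean levels per kilobase were 72.1 in TMut, 127 in TFoCa and 124 in WT for Pcdhb17, 56.3 in TMut, 112 in TFoCa and 102 in WT for Pcdhb20, and 66.5 in TMut, 81.7 in TFoCa and 74.1 in WT for Pcdhb22. Pcdhb22, Pcdhb19 and Pcdhb18 did not pass the test in TMut versus WT, with log2 fold changes of -0.15, -0.26 and -0.26. Of the other beta members, Pcdhb4, Pcdhb12 and Pcdhb15 did not pass it either, and Pcdhb2, Pcdhb3, Pcdhb5, Pcdhb8, Pcdhb9, Pcdhb11, Pcdhb14, Pcdhb16, Pcdhb17, Pcdhb20 and Pcdhb21 fell, with log2 fold changes of -1.93 to -0.78. Of these, Pcdhb2, Pcdhb5 and Pcdhb11 kept their call when any 1 library was left out, and the calls of the others were lost without at least 1 of them.

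In the gamma cluster, 3 of 12 variable members of the A family fell in TMut versus WT, near the 20.4% of all genes tested that did so. In the B family 3 of 7 fell, which made 6 of 19 variable members in all. The median log2 fold change of the variable members was -0.70. The count was 1 without WT replicate 2 and 2 without WT replicate 3 or without TMut replicate 2. Pcdhga2 had 151 and 110.5 in TMut, 519 and 348 in TFoCa, and 311, 333 and 343 in WT. TMut lay below and TFoCa above all 3 WT libraries, and Pcdhga2 fell in TMut versus WT (log2 fold change -1.34 ± 0.24, adjusted p = 0.00409).

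Pcdhgb6 had 304 and 251 in TMut, 849 and 508 in TFoCa, and 569.6, 629 and 473 in WT. Per kilobase of exon free of other genes it was the second highest gamma member after Pcdhgc3, with 108 in TMut, 264 in TFoCa and 217 in WT. Pcdhgb6 fell (log2 fold change -0.9999 ± 0.25, adjusted p = 0.0157), a call lost at adjusted p = 0.059 leaving out WT replicate 2 and 0.0931 leaving out TMut replicate 2. Pcdhgb1 had 19.6 and 48 in TMut, 91 and 99.8 in TFoCa, and 66.7, 91.9 and 109 in WT. TMut was below the other 5 libraries, with replicate 1 the lowest. Pcdhgb1 fell (log2 fold change -1.48 ± 0.43, adjusted p = 0.0298), by -0.85 without TMut replicate 1 and -2.10 without TMut replicate 2, and the call was lost at adjusted p = 0.0869 leaving out WT replicate 2, 0.102 leaving out WT replicate 3 and 0.141 leaving out TMut replicate 1.

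Pcdhgb4 had 104 and 60.0 in TMut, 139 and 99.8 in TFoCa, and 147, 217 and 166 in WT. TMut and TFoCa both lay below WT and overlapped each other, and Pcdhgb4 fell in TMut versus WT (log2 fold change -1.13 ± 0.33, adjusted p = 0.0305), a call lost at adjusted p = 0.108 leaving out WT replicate 2, 0.0791 leaving out WT replicate 3 and 0.174 leaving out TMut replicate 2. Pcdhga3 had 111 and 126 in TMut, 237 and 220.3 in TFoCa, and 176, 176 and 176 in WT. The WT libraries were nearly equal and the genotypes did not overlap, but the difference between TMut and WT did not pass the test (log2 fold change -0.57 ± 0.21, adjusted p = 0.0597). DESeq2 called Pcdhga3 lower in TMut versus WT, at adjusted p = 0.0394. Pcdhgb2 had 152 and 163 in TMut, 155 and 204 in TFoCa, and 104, 112 and 158 in WT. The genotypes overlapped and the fitted difference between TMut and WT was above 0 without passing the test (log2 fold change 0.36 ± 0.27, adjusted p = 0.328). Pcdhga4 and Pcdhga6 also fell, with log2 fold changes of -0.75 and -1.12. The call of Pcdhga4 was lost at adjusted p = 0.0693 leaving out WT replicate 1, 0.135 leaving out WT replicate 2, 0.149 leaving out WT replicate 3, 0.144 leaving out TMut replicate 1 and 0.0926 leaving out TMut replicate 2, and that of Pcdhga6 at adjusted p = 0.0846 leaving out WT replicate 1, 0.0703 leaving out WT replicate 2, 0.124 leaving out WT replicate 3 and 0.206 leaving out TMut replicate 2. The 11 remaining variable members did not pass the test, with -0.92 to 0.07.

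The 5 c-type members did not move together. Pcdhac2, which in mice serves the spacing of serotonergic axons, had 117 and 86.4 in TMut, 236 and 236 in TFoCa, and 327, 244 and 214 in WT. All other libraries lay above both TMut libraries, and Pcdhac2 fell in TMut versus WT (log2 fold change -1.34 ± 0.26, adjusted p = 0.0056). It remained the highest alpha member per kilobase of exon free of other genes, with 33.7 in TMut, 77.9 in TFoCa and 86.4 in WT. Its share of the summed alpha level was 48.3% and 66.7% in TMut, 47.9% and 46% in TFoCa, and 46.7%, 42.9% and 38.3% in WT. It was higher in both TMut libraries than in the other 5, by a small margin in replicate 1. Pcdhac1 had 6.91 and 2.4 in TMut, 13.4 and 19.5 in TFoCa, and 15.7, 11.4 and 9.2 in WT. TMut was the lowest genotype at these low levels, and the difference from WT did not pass the test (log2 fold change -1.31 ± 0.58, adjusted p = 0.109).

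Pcdhgc3, a broadly expressed isoform that promotes dendrite branching in mouse cortical neurons, was the most abundant member in every genotype, by normalized count and per kilobase. It had 2771 and 2684 in TMut, 4339 and 2891 in TFoCa, and 2688, 2511 and 2456 in WT. The TMut and WT libraries overlapped, and the difference did not pass the test (log2 fold change 0.10 ± 0.16, adjusted p = 0.667). Its share of the summed gamma level was 54.8% and 55.6% in TMut, 47.6% and 46.3% in TFoCa, and 44.6%, 40.8% and 42.8% in WT. The share was above all other libraries in TMut, and above all WT libraries in TFoCa.

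Pcdhgc4, which is needed for the survival of interneurons in mice, had 141 and 102 in TMut, 270.1 and 163 in TFoCa, and 314, 236 and 153 in WT. Both TMut libraries lay below the others, but the WT libraries spread widely and the difference did not pass the test (log2 fold change -0.90 ± 0.37, adjusted p = 0.0877). Pcdhgc4 was called lower by DESeq2 at adjusted p = 0.0395 and by limma with the replicate block at adjusted p = 0.0293. Pcdhgc5, an isoform that appears late in the mouse brain, had 179.7 and 206 in TMut, 183 and 222 in TFoCa, and 123, 115 and 112 in WT. TMut and TFoCa both lay above the 3 WT libraries and overlapped each other. Pcdhgc5 was the 1 member that rose in TMut versus WT (log2 fold change 0.72 ± 0.22, adjusted p = 0.0354), a call lost at adjusted p = 0.0671 leaving out WT replicate 1, 0.105 leaving out WT replicate 2, 0.109 leaving out WT replicate 3, 0.0615 leaving out TMut replicate 1 and 0.152 leaving out TMut replicate 2.

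**Figure D4:**
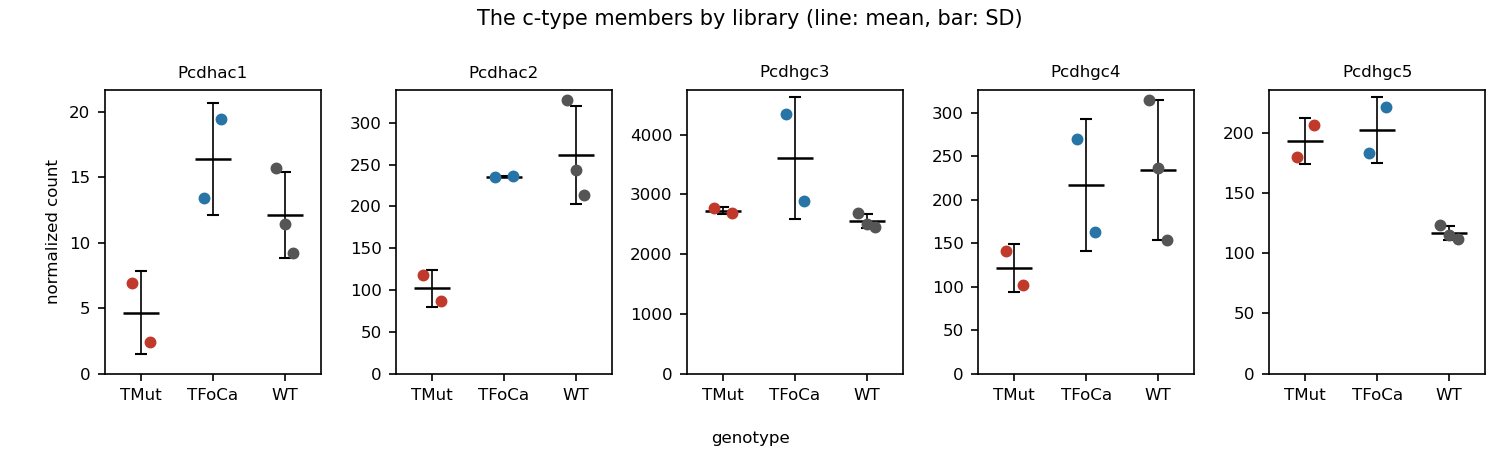
Normalized count (y axis, from 0, a separate scale in each panel) of the 5 c-type members in each library, with genotypes TMut, TFoCa and WT on the x axis. Points are libraries, lines are means and bars are SD (n = 2 TMut, 2 TFoCa and 3 WT). TMut lies below the other libraries for Pcdhac1, Pcdhac2 and Pcdhgc4, overlaps WT for Pcdhgc3, and lies above WT for Pcdhgc5.

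Compared with TFoCa, 27 of 53 members fell in TMut and 0 rose. Over all genes tested, 35.8% passed the test, 18.5% lower and 17.3% higher. The median log2 fold change of the members was -1.08, against 0.00 for all genes tested. By edgeR's quasi-likelihood test, DESeq2 and limma-voom the numbers that rose were also 0, and 0 members were higher at an unadjusted p under 0.05 by any of these tests. Both TMut libraries lay below both TFoCa libraries in 43 members and above them in 0, where 33.5% and 33.9% of all genes tested did so. Leaving out WT replicate 2 gave a count of 15 in place of 27, WT replicate 3 gave 17 and TMut replicate 2 gave 10, and the count was 4 when only the TMut and TFoCa libraries entered the fit. Of the 27, 7 kept their call when any 1 library was left out, namely Pcdha12, Pcdhb6, Pcdhb7, Pcdhb10, Pcdhb13, Pcdhga2 and Pcdhga3.

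By cluster, 4 of 10 alpha, 16 of 21 beta and 7 of 22 gamma members fell in TMut versus TFoCa. Of all genes tested, 18.5% did so. The medians of the log2 fold change were -1.71, -1.28 and -0.81. The alpha median was -1.06 without TMut replicate 2 and also -1.06 with a pseudocount of 8, and the gamma median was -0.43 without TFoCa replicate 1. The beta count was 8 if WT replicate 2 was left out, 10 without WT replicate 3, 6 without TFoCa replicate 2 and 4 without TMut replicate 2. The gamma count was 12 without TFoCa replicate 2, 4 without WT replicate 2, WT replicate 3 or TMut replicate 1, and 3 without TFoCa replicate 1 or TMut replicate 2.

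Among the alpha members described above, Pcdha12 fell in TMut versus TFoCa (log2 fold change -2.32 ± 0.52, adjusted p = 0.0125), by -3.05 without TMut replicate 1 and -1.58 without TMut replicate 2. Pcdha3 also fell (log2 fold change -2.92 ± 0.80, adjusted p = 0.0261), by -4.33 without TMut replicate 1 and -1.51 without TMut replicate 2, and its call was lost at adjusted p = 0.0659 leaving out TFoCa replicate 1 and 0.0772 leaving out TFoCa replicate 2. For Pcdha6 the fitted difference of -2.16 ± 0.77 did not pass the test (adjusted p = 0.063), and the ratio of reads, 14.6%, had an exact 95% interval of 1.62% to 62.9%, or 0.309% to 102.3% with 2 reads taken as 1 fragment. The call was made without TMut replicate 2, at adjusted p = 0.0407. Pcdhac2 fell (log2 fold change -1.22 ± 0.28, adjusted p = 0.0147), a call lost at adjusted p = 0.0746 leaving out TMut replicate 2. Pcdhac1 did not pass the test (adjusted p = 0.0666), except without TMut replicate 1 at 0.0388.

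Of the beta members, Pcdhb13 fell (log2 fold change -4.09 ± 0.69, adjusted p = 0.00468), with a fitted value of -3.21 without TMut replicate 1, -4.97 without TMut replicate 2 and -2.08 with a pseudocount of 8. Its ratio of TMut to TFoCa reads was 3.85%, with an exact 95% interval of 0.455% to 14.55%, or 0.0926% to 22.8% with 2 reads taken as 1 fragment. Pcdhb10 fell (log2 fold change -2.36 ± 0.48, adjusted p = 0.00884), by -2.99 without TMut replicate 1 and -1.74 without TMut replicate 2. Pcdhb6, the beta member with the highest TFoCa level relative to WT, fell in TMut versus TFoCa (log2 fold change -2.11 ± 0.41, adjusted p = 0.00755), as did Pcdhb7 (log2 fold change -1.54 ± 0.29, adjusted p = 0.00704). Pcdhb18 fell (log2 fold change -0.77 ± 0.25, adjusted p = 0.0465), a call lost at adjusted p = 0.0729 leaving out WT replicate 1, 0.0861 leaving out WT replicate 2, 0.0843 leaving out WT replicate 3, 0.159 leaving out TFoCa replicate 2 and 0.193 leaving out TMut replicate 2.

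Of the gamma members, Pcdhga2 fell in TMut versus TFoCa (log2 fold change -1.71 ± 0.26, adjusted p = 0.00366), and so did Pcdhga3 (log2 fold change -0.95 ± 0.22, adjusted p = 0.0156). Pcdhgb6 fell (log2 fold change -1.25 ± 0.27, adjusted p = 0.0116), a call lost at adjusted p = 0.0644 leaving out TMut replicate 2. Pcdhgb1 fell (log2 fold change -1.60 ± 0.47, adjusted p = 0.0338), by -0.97 without TMut replicate 1 and -2.23 without TMut replicate 2, and its call was lost at adjusted p = 0.0636 leaving out WT replicate 2, 0.0566 leaving out WT replicate 3, 0.0745 leaving out TFoCa replicate 1, 0.0918 leaving out TFoCa replicate 2 and 0.118 leaving out TMut replicate 1. None of the 3 gamma c-type members passed the test. Their log2 fold changes in TMut versus TFoCa were -0.38 ± 0.18 for Pcdhgc3, -0.80 ± 0.40 for Pcdhgc4 and -0.06 ± 0.24 for Pcdhgc5. Pcdhgc3 passed it without TFoCa replicate 2, at adjusted p = 0.00773.

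Between TFoCa and WT, 0 of 53 members passed the test in either direction. Of all genes tested, 8.77% passed it, 5.25% higher and 3.52% lower. At an unadjusted p under 0.05, limma had 3 members, 2 higher and 1 lower in TFoCa, edgeR and limma-voom had 5 each, and DESeq2 had 4. After adjustment edgeR and limma-voom called 0 members, and DESeq2 called Pcdhgc5. The median log2 fold change was 0.12 for the members and -0.02 for all genes tested. The members' median was -0.0085 without TFoCa replicate 1, 0.07 without WT replicate 1 and 0.0055 with quantile normalization. Both TFoCa libraries lay above all WT libraries in 8 members and below them in 7, where 21% and 24.2% of all genes tested did so. The WT libraries serve in this comparison and in that of TMut with WT, so the values of the 2 comparisons are not independent.

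By limma no cluster had a called member in TFoCa versus WT. In the alpha cluster 9 of 10 fitted differences were below 0, with a median of -0.23. In the beta cluster 15 of 21 were above 0, with a median of 0.12, and in the gamma cluster 17 of 22 were above 0, with a median of 0.23. All 3 medians moved with single libraries. Without TFoCa replicate 1 the gamma median was -0.10 and the beta median 0.22, and without TFoCa replicate 2 the gamma median was 0.52, the beta median 0.01 and the alpha median -0.41. Leaving out WT replicate 2 gave a beta median of 0.06, WT replicate 1 gave 0.08 and WT replicate 3 gave 0.20, and quantile normalization put it at -0.01. TFoCa replicate 1 exceeded TFoCa replicate 2 in 18 of 22 gamma members, against 5 of 10 alpha and 4 of 21 beta members. It lay above all WT libraries in 14 gamma members, where TFoCa replicate 2 did so in 6.

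The members nearest to a call in TFoCa versus WT were c-type. For Pcdhgc5 the fitted log2 fold change was 0.79 ± 0.22 (adjusted p = 0.068), with both TFoCa libraries above all 3 WT libraries, and DESeq2's adjusted p was 0.0142. Pcdhgc3 had 0.47 ± 0.16 (adjusted p = 0.117) and passed the test without TFoCa replicate 2, at 0.0102. Pcdhac1, Pcdhac2 and Pcdhgc4 had 0.42 ± 0.58, -0.13 ± 0.26 and -0.10 ± 0.37.

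Among the variable alpha members, Pcdha5 had the largest fitted difference, -1.48 ± 0.54 (adjusted p = 0.137), with both TFoCa libraries below the WT libraries. Pcdha2 had -1.21 ± 0.70 (adjusted p = 0.328), with TFoCa replicate 2 inside the WT range and TFoCa replicate 1 below it. In the beta cluster Pcdhb6 had 0.87 ± 0.37 (adjusted p = 0.197) and Pcdhb18 had 0.51 ± 0.23 (adjusted p = 0.211), both with TFoCa above WT in every library. In the gamma cluster Pcdhgb2 had 0.54 ± 0.27 (adjusted p = 0.266), Pcdhga3 had 0.37 ± 0.21 (adjusted p = 0.302) and Pcdhgb4 had -0.56 ± 0.33 (adjusted p = 0.341). The TFoCa libraries lay above WT for Pcdhga3 and below WT for Pcdhgb4, and overlapped WT for Pcdhgb2.

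The counts of members that fell are set side by side here without a test of the difference between groups, and over all genes tested 20.4% fell in TMut versus WT, 18.5% in TMut versus TFoCa and 3.52% in TFoCa versus WT. Of the variable alpha members 6 of 8 fell in TMut versus WT, 3 of 8 in TMut versus TFoCa and 0 of 8 in TFoCa versus WT. For the beta members these counts were 15, 16 and 0 of 21, and for the variable gamma members 6, 7 and 0 of 19. For the 5 c-type members they were 1, 1 and 0, and that 1 was Pcdhac2 in both comparisons. In TMut versus WT the c-type count was 2, with Pcdhgc4, by DESeq2 and with the replicate block. In all, 23 members fell in both comparisons of TMut and 32 in at least 1 of them. Both TMut libraries lay below all 5 TFoCa and WT libraries in 39 members, namely 8 alpha, 18 beta and 13 gamma members, where 25.4% of all genes tested did so.

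The delta protocadherins are single genes outside the clusters, with roles in sorting of cells and wiring of circuits. Of 10 tested, 4 rose and 3 fell in TMut versus WT, 3 rose and 4 fell in TMut versus TFoCa, and 3 rose in TFoCa versus WT. Of all genes tested, 38.8%, 35.8% and 8.77% passed in these 3 comparisons. Without TMut replicate 2 the number that fell in TMut versus WT was 1, and without TFoCa replicate 1 the number that fell in TMut versus TFoCa was 2. Pcdh7 averaged 3897 ± 476 in TMut, 1432 ± 401 in TFoCa and 768 ± 51.9 in WT (SD, n = 2, 2 and 3). It rose in TMut versus WT (log2 fold change 2.34 ± 0.18, adjusted p = 0.000163). Pcdh8 averaged 548 ± 384 in TMut, 2532 ± 892 in TFoCa and 3634 ± 719 in WT and fell in TMut versus WT (-2.91 ± 0.44, adjusted p = 0.00184). Pcdh17 averaged 731 ± 279.5 in TMut, 2058 ± 30.0 in TFoCa and 641 ± 70.2 in WT and rose in TFoCa versus WT (1.69 ± 0.23, adjusted p = 0.00725).

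Of 11 measured large and atypical cadherins, 5 fell and 3 rose in TMut versus WT, and 6 fell and 1 rose in TMut versus TFoCa. Of all genes tested, 38.8% and 35.8% passed in these comparisons. Without TMut replicate 2 the number that rose in TMut versus WT was 1, and that in TMut versus TFoCa was 0, against 3 without TFoCa replicate 1. In TFoCa versus WT the median log2 fold change was 0.22. The Celsr genes, which encode cadherins of planar polarity and axon guidance, were among those that fell. Celsr3 averaged 579.9 ± 224 in TMut, 2345 ± 501 in TFoCa and 2916 ± 153 in WT (-2.38 ± 0.24 in TMut versus WT, adjusted p = 0.000355). Celsr2 averaged 1922 ± 845 in TMut, 11592 ± 3714 in TFoCa and 12510.0 ± 543 in WT (-2.77 ± 0.28, adjusted p = 0.000381), and Celsr1 averaged 707 ± 123 in TMut, 3317 ± 2049 in TFoCa and 3053 ± 554 in WT (-2.11 ± 0.36, adjusted p = 0.00319).

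Regulators of promoter choice include CTCF, cohesin and enzymes of DNA methylation. Of 27 tested, 11 fell and 2 rose in TMut versus WT, 8 fell and 4 rose in TMut versus TFoCa, and 4 fell in TFoCa versus WT. Their medians were -0.25, -0.05 and -0.21, and 38.8%, 35.8% and 8.77% of all genes tested passed in these comparisons. Without TMut replicate 2 the counts in TMut versus TFoCa were 1 and 2, and the TFoCa versus WT count was 0 without WT replicate 2 or WT replicate 3, 2 without WT replicate 1 and 1 without TFoCa replicate 1. The other libraries that moved the 8 were WT replicate 2 and TMut replicate 1, with 3 each, and WT replicate 3 and TFoCa replicate 2, with 5 each. Rad21, a cohesin subunit, averaged 10012 ± 132 in TMut, 12688 ± 472 in TFoCa and 14765 ± 80.9 in WT and fell in TMut versus WT (-0.56 ± 0.08, adjusted p = 0.0018). Wiz, a zinc finger protein that binds DNA near CTCF and cohesin, averaged 4589.6 ± 97.1 in TMut, 7201 ± 479 in TFoCa and 8311 ± 739 in WT and fell (-0.85 ± 0.10, adjusted p = 0.000825). Rest, a repressor of neuronal genes, averaged 4576 ± 541 in TMut, 2686 ± 337 in TFoCa and 2606 ± 168 in WT and rose (0.81 ± 0.12, adjusted p = 0.00208). Dnmt3b, a DNA methyltransferase that methylates protocadherin promoters in mice, averaged 4845 ± 4029 in TMut, 347 ± 25.2 in TFoCa and 776 ± 45.2 in WT. The TMut libraries differed widely, with an SD near their mean. Dnmt3b rose in TMut versus TFoCa (3.49 ± 0.51, adjusted p = 0.00314). Ctcf averaged 4410.3 ± 96 in TMut, 4501 ± 243 in TFoCa and 6305 ± 358 in WT. Its TMut mean lay below its TFoCa mean, so a mean under that of WT was not particular to TFoCa. Ctcf fell in TFoCa versus WT (-0.49 ± 0.09, adjusted p = 0.0203). That call was lost at adjusted p = 0.0663 leaving out WT replicate 1, 0.0573 leaving out WT replicate 2 and 0.0866 leaving out WT replicate 3. It was also lost without TFoCa replicate 1.

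Of 24 intracellular partners of the protocadherins and enzymes that cleave them, 5 fell and 5 rose in TMut versus WT, 5 fell and 2 rose in TMut versus TFoCa, and 1 fell and 1 rose in TFoCa versus WT. In TMut versus WT and TFoCa versus WT these counts were near the share of all genes tested that passed, 38.8% and 8.77%. The 5 that rose in TMut versus WT were 3 without WT replicate 2, WT replicate 3 or TMut replicate 2, and 2 without TMut replicate 1. The 5 that fell in TMut versus TFoCa were 2 without TMut replicate 2, and the 2 that rose were 1 without WT replicate 2, WT replicate 3, TFoCa replicate 2, TMut replicate 1 or TMut replicate 2. The 1 that rose in TFoCa versus WT was lost without any 1 WT library, and 2 rose without either TFoCa library, while 2 fell without TFoCa replicate 1. Ptk2b, a kinase that clustered protocadherins hold in check, averaged 977 ± 194 in TMut, 147 ± 89.6 in TFoCa and 98.5 ± 34.4 in WT and rose in TMut versus WT (3.34 ± 0.44, adjusted p = 0.00106). Wasf3, Wasf1 and Cyfip2, subunits of the WAVE complex that promotes actin assembly, fell in TMut versus WT. Their log2 fold changes were -0.97 ± 0.10, -0.93 ± 0.11 and -1.18 ± 0.15. These genes were named by smallest adjusted p. Values of the other WAVE genes in the list are not given, so a change of the complex as a whole is not shown. Of the 24 genes, 15 were fitted above 0 and 9 below in TMut versus WT, with a median log2 fold change of 0.10.

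Of 13 genes tested that flank or lie between the clusters on the chromosome, 3 rose and 1 fell in TMut versus WT, 7 rose and 1 fell in TMut versus TFoCa, and 1 fell in TFoCa versus WT, or 2 without either TMut library. Of all genes tested, 38.8% passed in TMut versus WT, 35.8% in TMut versus TFoCa and 8.77% in TFoCa versus WT. With all libraries, the counts in TMut versus WT and TFoCa versus WT were not above these shares. The median log2 fold changes of the 13 genes were 0.03, 0.46 and -0.19. Hars, a histidyl tRNA synthetase beside the alpha cluster, averaged 4335 ± 188 in TMut, 2929 ± 42 in TFoCa and 2869 ± 46.1 in WT and rose in TMut versus WT (0.59 ± 0.09, adjusted p = 0.00161). Rell2, on the far side of the gamma cluster, averaged 69.6 ± 23.7 in TMut, 307 ± 77.2 in TFoCa and 355 ± 38.9 in WT and fell (-2.37 ± 0.28, adjusted p = 0.000725). No difference between these lists and the clustered members was tested.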

How the data were processed

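The authors' tools, per the submitters' processing notes, were STAR 2.7.3a, Trim Galore 0.6.5, DESeq2, SAMtools and featureCounts, and the build was mm39. Settings and annotation are not given in the sources used here. The deposited table holds normalized counts (a signal), which the authors made by dividing gene counts by a size factor. Whole reads were recovered for 100% of values within 0.001 read. The smallest row sum is 71 reads, and 70.29% to 79.32% of values from 1 to 20 reads were even, as when both mates are counted. Intervals were computed on reads and, as an alternative chosen after seeing the data, with 2 reads of a library as 1 fragment, and cover counting error only.

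Log2(normalized count + 1) was fitted with limma 3.58.1 (intensity trend, R 4.3.3) in 1 model over 3 genotypes with 4 residual degrees of freedom. The fit covered 18134 genes with 10 or more in at least 2 libraries, and a call needed a Benjamini-Hochberg adjusted p under 0.05. The test was also run on simulated counts, with the same relative spread between libraries set for every gene. The spread of the real libraries differed by gene, so that run does not vouch for single calls. On the recovered reads, edgeR 4.0.16 called 1606 genes in TFoCa versus WT, 7041 in TMut versus WT and 6379 in TMut versus TFoCa, and DESeq2 1.42.0 called 2947, 7664 and 7207, where limma called 1590, 7043 and 6491. Other alternatives were voom, pseudocounts of 0.5 and 8, other filters and normalizations, a fit to 2 genotypes, a replicate block and leaving out each library. Same-numbered libraries correlated by 0.0192 to 0.185 in their deviations from group means, and differently numbered ones by -0.185 to 0.108. In a group of 2 libraries the deviations mirror each other, so these values cannot decide whether numbers pair the libraries. The main fit did not pair them, and the replicate block is given as an alternative.

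Members and gene lists were chosen with earlier results of these data known. Values in every library are given for the c-type members and, per cluster and comparison, for the 2 variable members with the smallest adjusted p and the 1 with the largest fold change. Of other lists, at most 4 called genes per comparison could be named, by smallest adjusted p. Lengths and exon sharing came from GENCODE M21 (GRCm38) and names from RefSeq GRCm38.p6, another build than that of the files, so no coordinates are given.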

Additional observations from a re-analysis of the deposited data

How the results depend on the processing

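Called members kept their direction under each alternative that tested them. These were 18, or 17 for the 7 of 29 in TMut versus WT and 4 of 27 in TMut versus TFoCa left out by a filter at a mean of 50. In TMut versus WT, 9 members were called under 18 and Pcdha6 and Pcdhb13 under 17. In TMut versus TFoCa, Pcdhga2 was called under 18 and Pcdhb6 and Pcdhb13 under 17. With the replicate block, TMut versus WT had 0 members higher and 13 lower among 4620 genes called, TMut versus TFoCa had 15 members lower, and TFoCa versus WT had 555 genes called. DESeq2 called 1 member higher in TFoCa versus WT, among 2947 genes. Quantile normalization gave 13 members lower in TMut versus TFoCa, with medians of -0.98 (beta) and -0.51 (gamma), and a beta median of -0.93 in TMut versus WT, where a pseudocount of 8 gave -0.92. With a mean of 50 or more, the alpha median in TMut versus WT was -2.83, over fewer members. With only the 2 genotypes, TMut versus TFoCa had 4 members lower among 3419 genes. The cause of these shifts was not tested.

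Leaving out 1 library at a time gave 12 to 31 members lower and 0 to 1 higher in TMut versus WT (4329 to 8127 genes called), and 10 to 25 lower in TMut versus TFoCa (3164 to 5940 genes). In TFoCa versus WT it gave 0 to 1 members higher and 495 to 1768 genes called. Beta medians were -1.22 to -0.85 in TMut versus WT and -1.46 to -0.98 in TMut versus TFoCa. Gamma medians were -1.08 to -0.43 in TMut versus TFoCa and -0.10 to 0.52 in TFoCa versus WT. A lone library was assumed to vary like the other groups. At 2 reads, as for Pcdhb13 and Pcdha6 in TMut, depth limits the size of the fall. For Pcdha6 in TMut versus TFoCa it also limits the direction. There the interval with 2 reads taken as 1 fragment ran from 0.309% to 102.3%.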
